A study of Rattus norvegicus with 9 samples.

Results

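The transcripts described here are those of the translation initiation and elongation factors, read by array in the blood mononuclear cells (PBMC) of rats on 2 diets. Members were all array probes whose gene name in the scanner files began with Eif and a digit from 1 to 6 or with Eef, without the Eif2ak kinases, and for a gene with several probes the brightest on average stood for it. This took in 78 of 41012 probes and 47 of 35658 named genes or transcripts, of which 45 were detected, meaning well above background in Cy5 on at least 4 of 9 arrays, among 22078 genes detected in all. Neither Eef1a2, the elongation factor form of muscle and neurons, nor Eif5a2 was well above background on any array. Ago3 passed with 4 arrays, 1 control and 3 cafeteria, and the other 44 were detected on all 9. The names in the files are older than current ones, so the eIF3 subunits appear under numbers and 4 Argonaute genes, which act in RNA silencing and are not translation factors, came in under their former names Eif2c1 to Eif2c4. Another 13 genes carry such a name only in the current RefSeq table and were not taken in, among them Eif6, Eif3m and Eif4h.

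All animals were male Wistar rats with no genetic modification named in the labels, aged 6 months when bled from the saphenous vein in the fed state. The 4 controls, numbered 1, 4, 7 and 13, ate standard chow, and the 5 cafeteria animals, numbered 1, 4, 7, 10 and 13, were given an energy-dense cafeteria diet rich in fat as well, starting at 2 months of age and lasting 4 months. The authors dropped 1 more control for its low RNA yield. The comparison asks how circulating blood cells differ in diet-induced obesity. Every value below is a log2 ratio of 1 animal (Cy5) to a Cy3 reference pooled over all groups, and every difference is cafeteria minus control on the log2 scale, with its standard error (SE) from limma. Lists of 4 values run through the controls and lists of 5 through the cafeteria animals in the order of the numbers above.

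Translation begins when eIF2 brings initiator tRNA to the small ribosomal subunit and the eIF4 factors bring that subunit to the cap of an mRNA, with eIF3 as the platform that holds both together. The eIF2B complex recharges eIF2 with GTP, 4E-binding proteins hold back the cap-binding protein until mTOR phosphorylates them, and the eEF1 and eEF2 factors then move the ribosome along codon by codon. Several of these mRNAs, those of the elongation factors above all, begin with a run of pyrimidines (the terminal oligopyrimidine tract) through which mTOR governs their translation, and lymphocytes raise the whole machinery when they leave the resting state.

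The start regions of 6 members are printed, from 40 bases before the RefSeq transcript start to 20 bases from it, on the gene's strand (RefSeq, build GRCr8). The longest run of C and T is in capitals. In Eef1a1 it crosses the annotated start, and in Eef1b2 and Eif3f it lies just after it. In Eef2, Eef1g and Eif4e it lies before the start, outside the annotated transcript.
Eef1a1 (chr8:88225050-88225109, minus strand): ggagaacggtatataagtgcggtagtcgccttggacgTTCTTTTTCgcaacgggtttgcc
Eef2 (chr7:9189219-9189278, minus strand): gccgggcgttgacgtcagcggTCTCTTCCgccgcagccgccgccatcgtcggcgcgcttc
Eef1b2 (chr9:72074051-72074110, plus strand): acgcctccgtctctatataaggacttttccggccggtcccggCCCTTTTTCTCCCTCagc
Eef1g (chr1:215289775-215289834, plus strand): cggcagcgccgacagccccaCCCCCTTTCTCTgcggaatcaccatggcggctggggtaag
Eif3f (chr1:172369022-172369081, plus strand): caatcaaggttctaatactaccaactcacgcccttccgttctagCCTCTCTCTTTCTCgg
Eif4e (chr2:229740713-229740772, plus strand): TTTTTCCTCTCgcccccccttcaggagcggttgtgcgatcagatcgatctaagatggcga
The runs span 9, 8, 15, 12, 14 and 11 bases in that order. That of Eif4e begins at the first base of its window, so 11 is its length inside the window only. Of all 33469 such windows in the table, 16.1%, 23.9%, 2.00%, 5.32%, 2.80% and 7.63% hold a run at least as long. A run of 8 or more on the gene's strand stood in 14 of 44 member windows (31.8%, from 41 members) against 23.9% of all windows, and the median longest run was 6 bases in both, so the windows as a group were close to those of other genes. A match is a description of these letters only.

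No translation factor differed between the diets past the threshold. Of the 45 detected members, 0 had a limma adjusted p under 0.05 (lowest 0.997), where 0.00453% of all genes did, and 1 had an unadjusted p under 0.05, where 4.08% of all genes did. That member was Ago2. The median difference was 0.034 over the members and 0.010 over all genes, with members from -0.29 (Eif4ebp2) to 0.18 (Eef1g). The 95% interval lay within 0.5 of 0 for 39 of 45 members and within 1 of 0 for all 45.

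The direction of the small differences depended on the processing. As processed, 32 of 45 members were above 0, where 54.8% of all genes were. The number above 0 was 21 of 45 with median centring of the arrays in place of loess, where 57.9% of all genes were. It was 16 of 45 with the slide as a block, where 51.6% of all genes were. With the authors' values it was 39 of 44, where 77.2% of all genes were and their median itself lay at 0.13. With the authors' values centred on each array's median, it was 30 of 44, where 51.6% of all genes were. The slide block compares the diets only on the 2 slides that hold both groups, described next, and the other arrays carry no weight in it. Within the slide that held control 1 and cafeteria 1, 18 of 45 were above 0 with a median of -0.073. Within the slide that held control 13 and cafeteria 10, 25 were above 0 with a median of 0.0081.

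**Figure D1:**
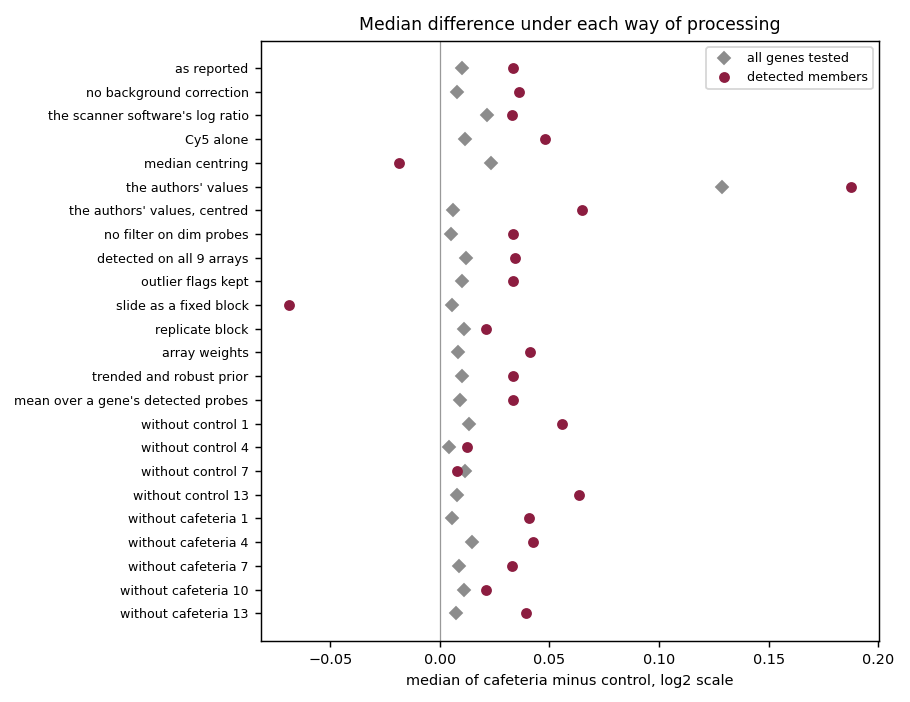
Median difference between the diets (x axis, log2 scale) over the detected members and over all genes tested, under each way of processing (y axis). The members' median runs from -0.069 with the slide as a fixed block to 0.19 with the authors' values, where the median of all genes moves to 0.13 too.

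**Figure D2:**
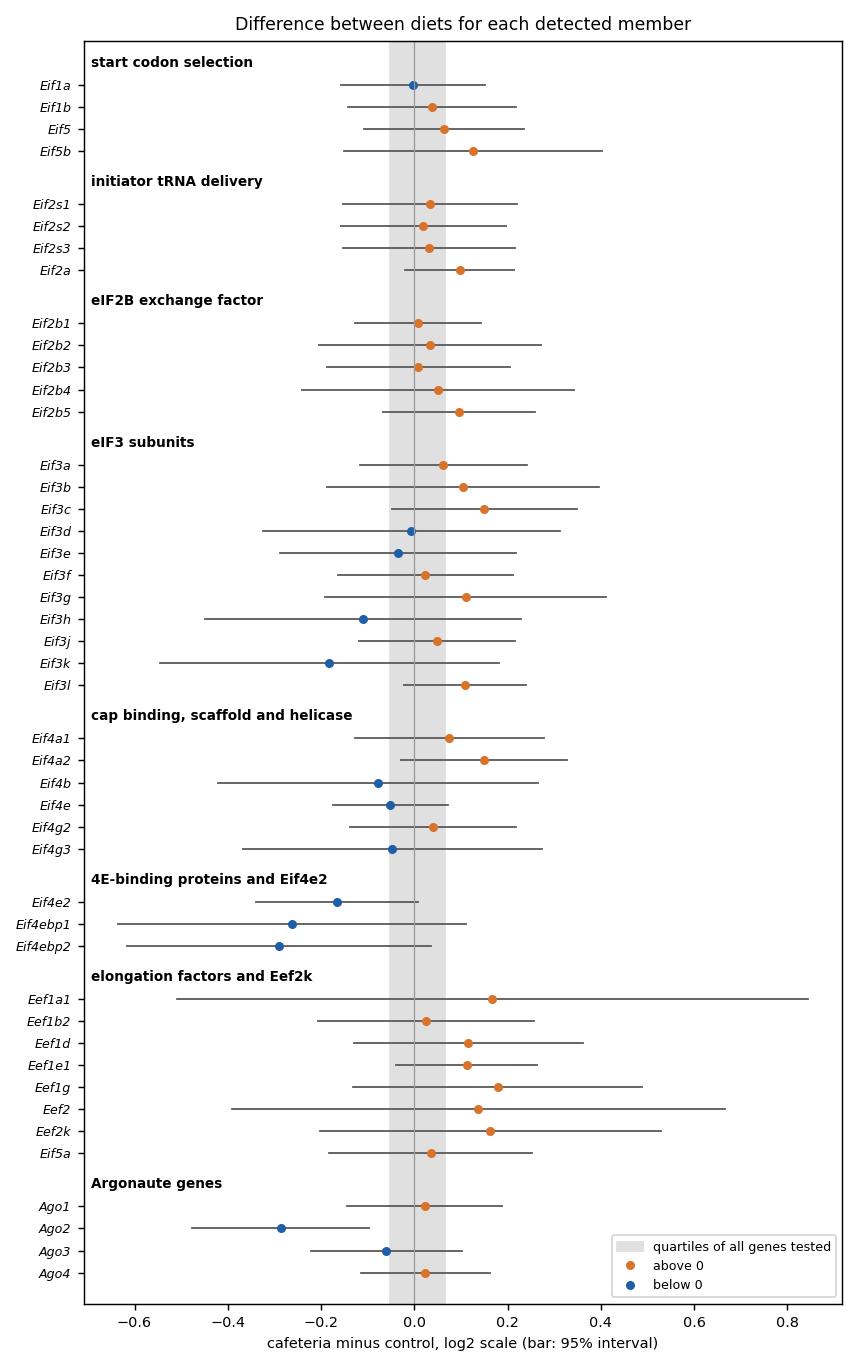
Difference between the diets (x axis, cafeteria minus control, log2 scale) for each of the 45 detected members (y axis, grouped by role), with its 95% interval from limma and the range between the quartiles of all 22078 genes in grey. Only the interval of Ago2 (-0.48 to -0.096) lies wholly on one side of 0, and Eef1a1 has the widest (-0.51 to 0.84).

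Among the factors of start codon selection, 3 of 4 were above 0 (median 0.050, 0.012 without control 7 and -0.0029 with the slide as a block). Eif1a, which helps the small subunit scan for the start codon, was at 0.19, 0.31, 0.16 and 0.18 in controls and 0.12, 0.18, 0.19, 0.16 and 0.40 in cafeteria animals, a difference of -0.0024 (SE 0.069). Eif5, which triggers GTP hydrolysis by eIF2 at the start codon, was at 0.029, 0.0055, -0.20 and 0.025 in controls and -0.16, 0.037, 0.053, 0.12 and 0.087 in cafeteria animals, a difference of 0.063 (SE 0.077). Eif5b, the GTPase that joins the large subunit, was at 0.11, 0.031, 0.47 and 0.31 in controls and 0.64, 0.059, 0.40, 0.38 and 0.30 in cafeteria animals, a difference of 0.13 (SE 0.12). The groups overlapped for all 3. Cafeteria 13 was the highest array for Eif1a and control 7 the lowest for Eif5. Eif1b differed by 0.038 (SE 0.081).

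The subunits that carry initiator tRNA had 4 of 4 differences above 0, with a median of 0.032 that turned to -0.013 without control 4. That count holds for the brightest probes. The most upstream probe of Eif2s2 differed by -0.23, and the most downstream and most upstream probes of Eif2s3 by -0.042 and 0.074. Eif2s1, the alpha subunit whose phosphorylation shuts down initiation, was at 0.12, -0.15, -0.22 and 0.035 in controls and -0.12, 0.044, -0.13, 0.069 and 0.032 in cafeteria animals, a difference of 0.033 (SE 0.084). Eif2s2, the beta subunit, was at 0.10, -0.26, 0.11 and -0.015 in controls and 0.015, 0.011, -0.052, 0.0057 and 0.035 in cafeteria animals, a difference of 0.019 (SE 0.079). Eif2s3, the GTP-binding gamma subunit, was at -0.12, -0.28, -0.0023 and -0.037 in controls and 0.11, -0.16, -0.094, -0.034 and -0.21 in cafeteria animals, a difference of 0.031 (SE 0.083). Control 4 was the lowest array for Eif2s2 and Eif2s3, and every group overlapped. Eif2a, a separate factor that can bring initiator tRNA without GTP, was at -0.062, -0.10, -0.12 and 0.034 in controls and 0.034, 0.0019, 0.053, 0.014 and 0.075 in cafeteria animals, a difference of 0.097 (SE 0.052), with a limma adjusted p of 0.997. Control 13 fell inside the cafeteria range, while the other 3 controls lay below it, and the sign of Eif2a held under all 23 alternatives.

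All 5 subunits of the exchange factor eIF2B were above 0, by 0.0078 to 0.096, with a median of 0.034. Eif2b1, its alpha subunit, was at -0.075, -0.044, -0.21 and -0.082 in controls and -0.18, -0.010, -0.16, -0.040 and -0.094 in cafeteria animals, a difference of 0.0078 (SE 0.061). The other 4 differed by 0.034 (SE 0.11) for Eif2b2, 0.0086 (SE 0.088) for Eif2b3, 0.051 (SE 0.13) for Eif2b4 and 0.096 (SE 0.073) for Eif2b5. The class median was below 0 in 2 of 23 alternatives, at -0.029 both without control 7 and with the slide as a block.

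Of the 11 detected subunits of eIF3, 7 were above 0 (median 0.049), but the class median lay below 0 in 4 of 23 alternatives. It was at -0.0042 without control 4, -0.0061 without control 7, -0.019 with median centring and -0.080 with the slide as a block. Eif3a, the largest subunit, was at -0.26, -0.43, -0.045 and -0.19 in controls and -0.12, -0.24, -0.22, -0.20 and -0.067 in cafeteria animals on its brightest probe, a difference of 0.062 (SE 0.080). Eif3c, which pairs with Eif3a, was at -0.090, -0.24, -0.16 and -0.24 in controls and 0.16, 0.053, -0.060, -0.013 and -0.30 in cafeteria animals, a difference of 0.15 (SE 0.089). Eif3e was at 0.41, -0.17, 0.066 and 0.25 in controls and 0.089, 0.092, -0.065, 0.26 and 0.14 in cafeteria animals, a difference of -0.035 (SE 0.11). For Eif3c the cafeteria arrays lay both above and below the controls, with cafeteria 13 lowest of all 9. Eif3f was at 0.12, -0.24, 0.040 and 0.17 in controls and 0.10, -0.028, 0.088, 0.036 and 0.040 in cafeteria animals, a difference of 0.024 (SE 0.084). Eif3h was at 0.40, -0.048, -0.18 and 0.56 in controls and 0.0011, 0.077, -0.038, 0.33 and -0.0075 in cafeteria animals, a difference of -0.11 (SE 0.15). Eif3e, Eif3f and Eif3h belong with Eif3a and Eif3c to the structural core of the complex, and controls 1 and 13 were the highest controls for all 3. Eif3k, a subunit that budding yeast lack, was at 0.41, 0.011, -0.19 and 0.32 in controls and 0.16, -0.22, 0.087, 0.19 and -0.45 in cafeteria animals, a difference of -0.18 (SE 0.16). Eif3l, its partner, was at -0.16, -0.25, -0.082 and -0.18 in controls and 0.055, -0.059, -0.095, -0.080 and -0.12 in cafeteria animals, a difference of 0.11 (SE 0.059). Eif3k was the eIF3 subunit furthest below 0 and kept its sign under all 23 alternatives, down to -0.010 with the authors' values. The other subunits, Eif3b, Eif3d, Eif3g and Eif3j, differed by -0.0065 to 0.11.

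**Figure D3:**
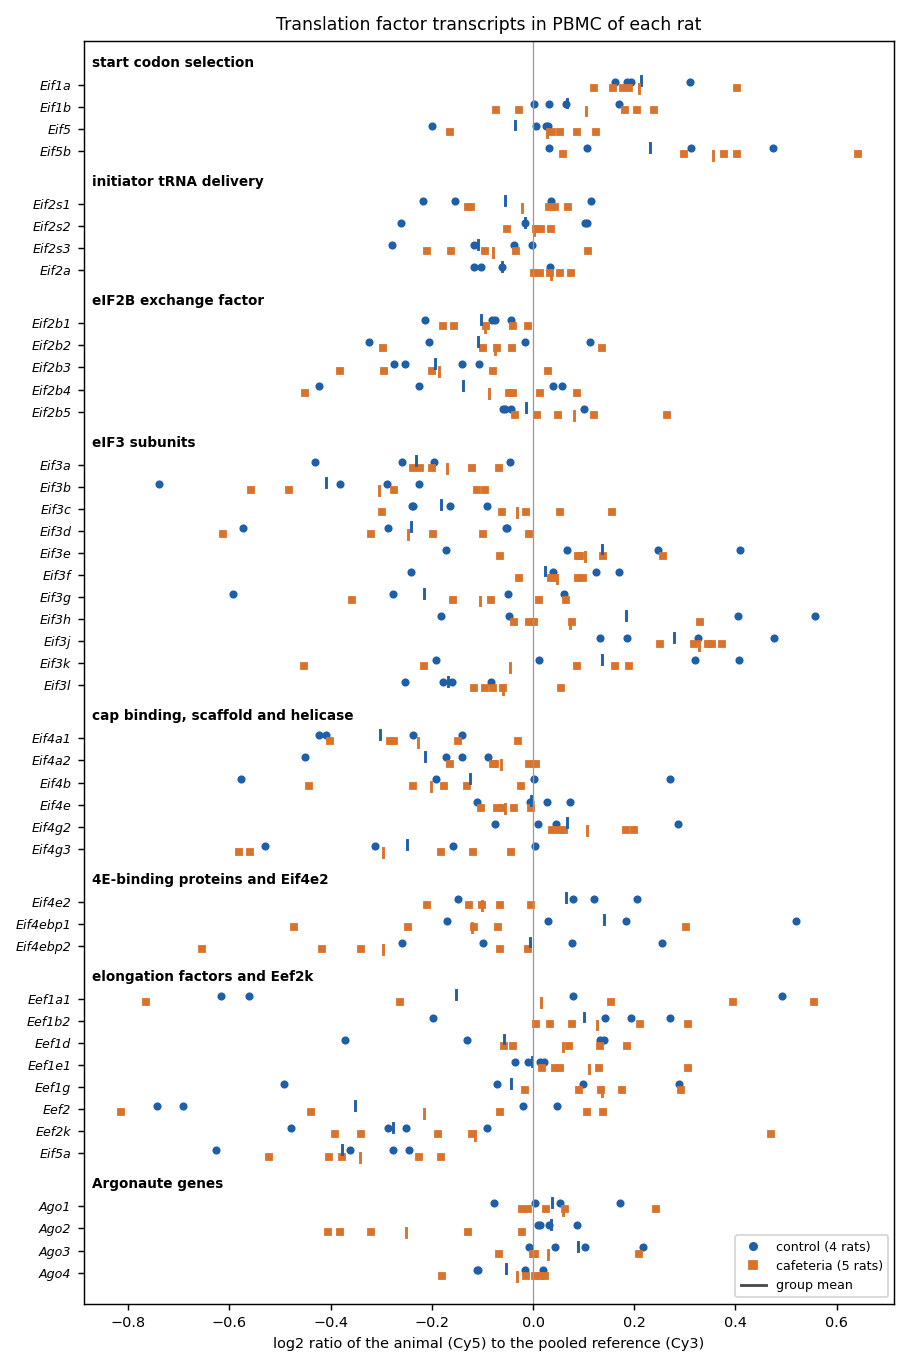
Log2 ratio to the pooled reference (x axis) of each detected member (y axis, grouped by role) in each of 4 control and 5 cafeteria rats, with a tick at each group mean. Ago2 is the 1 member whose groups do not overlap, and Eef1a1 and Eef2 spread widest within both groups.

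Eif3a was read by 3 probes, and they did not show the same difference. The brightest, at rn4 chr1:267369434-267369493, lies furthest downstream. The second, 6288 bases upstream in the genome (chr1:267375722-267375781), was at 0.60, 0.093, -0.66 and 0.060 in controls and -0.46, -0.14, -0.58, -0.66 and -0.96 in cafeteria animals, a difference of -0.58 (SE 0.23). The third, 12110 bases upstream (chr1:267381544-267382330), was at 0.43, 0.13, 0.26 and 0.15 in controls and 0.090, -0.19, -0.072, -0.68 and -0.51 in cafeteria animals, a difference of -0.52 (SE 0.15). On the third probe every control lay above every cafeteria animal, with cafeteria 10 and 13 lowest, a separation in that direction held by 0.815% of all probes. On the second probe only control 7 lay inside the cafeteria range. Neither passed adjustment (limma adjusted p 0.997 for the second and 0.986 for the third). Both kept their sign in 22 alternatives, from -0.89 to -0.39 for the second and from -0.61 to -0.38 for the third, and were lower in the cafeteria animal within both slides. The gap between the third and the first probe, which compares the probes' own log ratios within each animal, averaged -0.10 ± 0.33 (SD, n = 5) with the cafeteria diet and 0.48 ± 0.18 (SD, n = 4) with chow. A two-sided exact permutation test of that gap gave p = 0.016 (the smallest this design allows is 0.0079), adjusted over 16 members with several probes to 0.19. The gap was tested after the values had been seen. The files give neither exon nor untranslated region for a probe, so which transcript forms each probe reads is not given.

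**Figure D4:**
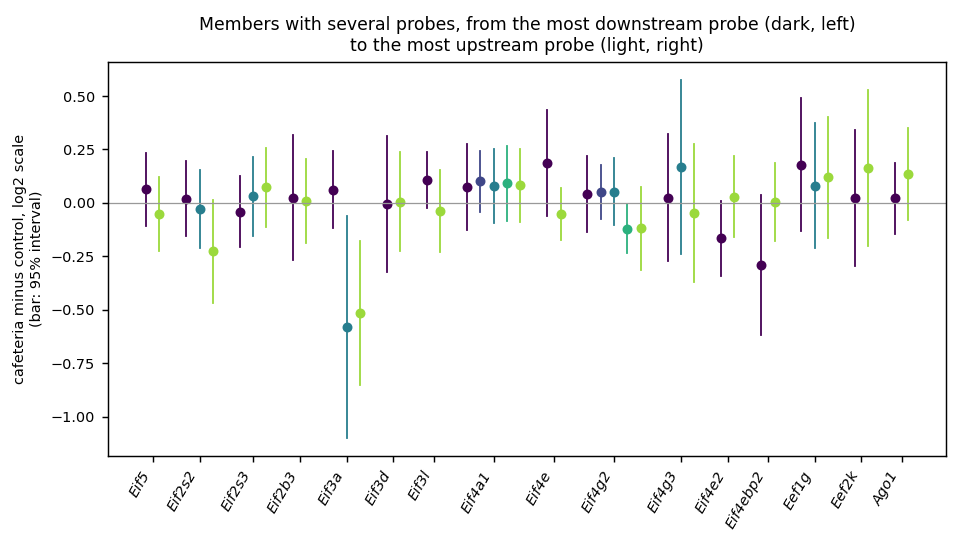
Difference between the diets with its 95% interval (y axis, log2 scale) for each probe of the 16 members with several probes and a known strand (x axis), from the most downstream (dark, left) to the most upstream (light, right). The 2 upstream probes of Eif3a, at -0.58 and -0.52, stand apart from its downstream probe at 0.062, while the 5 probes of Eif4a1 lie together between 0.075 and 0.10.

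Over all member probes, 4 of 76 had an unadjusted p under 0.05, where 4.4% of all probes did. These were the 2 upstream probes of Eif3a, 1 probe of Eif4g2 and the probe of Ago2, and all 4 were lower in cafeteria animals, where 2.86% of all probes were lower and 1.54% higher at that level. The groups did not overlap on 3 of the 76, all lower in cafeteria animals, where 1.27% of all probes did not overlap in either direction and 0.815% in that one. The 18 members with several probes had them all on 1 side of 0 in 6 cases. The most upstream probe lay below the most downstream one in 9 of 16 members, so the direction seen for Eif3a was not general.

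Of the 6 factors for cap binding, scaffold and unwinding, 3 were above 0 (median -0.0039, of the opposite sign in 11 of 23 alternatives). Eif4e, the protein that binds the cap, was at -0.0057, -0.11, 0.027 and 0.074 in controls and -0.038, -0.10, -0.0042, -0.062 and -0.071 in cafeteria animals, a difference of -0.052 (SE 0.055). Eif4a1, the main RNA helicase, was at -0.42, -0.24, -0.14 and -0.41 in controls and -0.27, -0.28, -0.15, -0.40 and -0.029 in cafeteria animals, a difference of 0.075 (SE 0.090). Eif4a2, its close relative, was at -0.14, -0.45, -0.089 and -0.17 in controls and -0.0077, -0.078, -0.076, -0.16 and 0.0051 in cafeteria animals, a difference of 0.15 (SE 0.080). On this brightest probe Eif4e had the second narrowest spread of the detected members, and all values lay between -0.11 and 0.074. A second Eif4e probe, 831 bases downstream in the genome, differed by 0.19, the highest difference among the 76 detected member probes. Eif4a2 was lowest in control 4, and 4 of 5 cafeteria arrays lay above all controls. Eif4b, which stimulates the helicase, was at -0.19, 0.27, -0.58 and 0.0010 in controls and -0.44, -0.18, -0.24, -0.024 and -0.13 in cafeteria animals, a difference of -0.078 (SE 0.15). Control 4 was its highest and control 7 its lowest array. Eif4g2, a scaffold that lacks the cap-binding protein's docking site, was at -0.075, 0.010, 0.29 and 0.046 in controls and 0.050, 0.060, 0.037, 0.18 and 0.20 in cafeteria animals, a difference of 0.040 (SE 0.080). Of its 5 probes 3 lay between 0.040 and 0.052, and the other 2 at -0.12. One of these was at 0.22, 0.20, 0.17 and 0.23 in controls and 0.099, 0.11, 0.046, 0.16 and 0.010 in cafeteria animals, with no overlap (limma adjusted p 0.997). A probe 71 bases from it differed by 0.052 (SE 0.070). Eif4g3, a cap-dependent scaffold, differed by -0.047 (SE 0.14).

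The genes that restrain cap binding were the class furthest below 0, with 0 of 3 above 0 and a median of -0.26. Eif4ebp1, the 4E-binding protein best known as an mTOR target, was at -0.17, 0.52, 0.030 and 0.18 in controls and -0.47, -0.12, -0.25, -0.070 and 0.30 in cafeteria animals, a difference of -0.26 (SE 0.17). Eif4ebp2, its homologue, was at 0.077, -0.099, 0.26 and -0.26 in controls and -0.010, -0.42, -0.065, -0.65 and -0.34 in cafeteria animals, a difference of -0.29 (SE 0.15). Eif4e2, a cap-binding homologue that does not bind the scaffold, was at 0.12, 0.20, -0.15 and 0.079 in controls and -0.066, -0.21, -0.13, -0.0044 and -0.10 in cafeteria animals, a difference of -0.17 (SE 0.078). The groups overlapped for each gene: control 1 lay below 3 cafeteria animals for Eif4ebp1, control 13 below 2 for Eif4ebp2, and control 7 below 4 for Eif4e2. The limma adjusted p was 0.997 for each, and none had an unadjusted p under 0.05. The 3 differences stayed below 0 under all 23 alternatives, though the detection filters and the prior leave a member's difference as it is. The class median ran from -0.35 with median centring to -0.12 with the authors' values. It was -0.14 without control 4, the highest array for Eif4ebp1 and Eif4e2. The second probe of Eif4ebp1 differed by -0.20 (SE 0.18), but those of Eif4ebp2 and Eif4e2 differed by 0.0040 (SE 0.081) and 0.029 (SE 0.086).

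The 8 detected elongation factors, counted with the kinase Eef2k and with Eif5a, were all above 0 (median 0.13). That direction was lost with median centring (-0.055) and with the slide as a block (-0.10). The median was 0.027 without control 4, 0.065 without control 7 and 0.20 without control 13, and between 0.035 and 0.041 with the scanner software's ratio, with Cy5 alone or with no background correction. Eef1a1, which delivers aminoacyl-tRNA, was at 0.079, -0.62, -0.56 and 0.49 in controls and -0.26, 0.40, 0.15, 0.56 and -0.76 in cafeteria animals, a difference of 0.17 (SE 0.30). Eef1b2, the exchange factor that recharges it with GTP, was at 0.19, -0.20, 0.14 and 0.27 in controls and 0.21, 0.31, 0.078, 0.034 and 0.0051 in cafeteria animals, a difference of 0.025 (SE 0.10). Eef1d, a second exchange subunit, was at 0.14, -0.37, -0.13 and 0.13 in controls and 0.13, 0.072, 0.19, -0.057 and -0.040 in cafeteria animals, a difference of 0.12 (SE 0.11). Control 4 was the lowest control for all 3, and for Eef1a1 both groups ran from below -0.5 to above 0.4. Eef1g, the anchoring subunit of the exchange complex, was at -0.070, -0.49, 0.099 and 0.29 in controls and 0.18, 0.29, 0.13, 0.091 and -0.017 in cafeteria animals, a difference of 0.18 (SE 0.14). Eef2, which moves the ribosome to the next codon, was at 0.047, -0.69, -0.74 and -0.019 in controls and -0.44, 0.11, -0.065, 0.14 and -0.81 in cafeteria animals, a difference of 0.14 (SE 0.24). Eef2k, the kinase that inhibits Eef2, was at -0.25, -0.29, -0.48 and -0.091 in controls and -0.12, -0.34, 0.47, -0.39 and -0.19 in cafeteria animals, a difference of 0.16 (SE 0.16). Cafeteria 7 stood above the other arrays for Eef2k, and its second probe differed by 0.021 (SE 0.14). Eif5a, the hypusine-bearing factor that helps the ribosome past stalling sequences, was at -0.24, -0.36, -0.63 and -0.28 in controls and -0.52, -0.18, -0.40, -0.23 and -0.38 in cafeteria animals, a difference of 0.035 (SE 0.098). Eef1e1, named as an elongation factor but a part of the multi-synthetase complex, was at 0.015, -0.010, -0.036 and 0.023 in controls and 0.13, 0.017, 0.053, 0.044 and 0.31 in cafeteria animals, a difference of 0.11 (SE 0.068). For Eef1e1 cafeteria 13 was highest, and its sign held under all 23 alternatives. The 6 members whose start regions are printed above differed by -0.052 (Eif4e) to 0.18 (Eef1g), and those with the longest pyrimidine runs inside the printed windows, Eef1b2 and Eif3f, by 0.025 and 0.024.

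Differences between animals of one group were the larger feature of Eef1a1 and Eef2. Their pooled SD within groups was 0.53 and 0.41, at the 98.2 and 96.2 percentile of all genes, while the median was 0.14 over members and 0.13 over all genes, and 23 of 45 members lay above the latter. Both were lowest in cafeteria 13 and in controls 4 and 7, and both were at their highest in cafeteria 10, beside control 13 for Eef1a1 and cafeteria 4 for Eef2. Across the 9 arrays Eef1a1 correlated with Eef2 (Pearson's r = 0.964, exact permutation p = 2.73e-04, adjusted 0.012 over the 44 other detected members; Spearman's rho = 0.900, adjusted exact p = 0.045). Without the 2 arrays farthest from the median, cafeteria 13 and control 4, r was 0.930. Eif2b4, the delta subunit of eIF2B, was the only other member past 0.05 after adjustment (r = 0.886, adjusted exact permutation p = 0.020; rho = 0.917, adjusted exact p = 0.045; r = 0.824 without the same arrays). High values were not particular to these genes. Of the 44 relations 33 were above 0, with r = 0.832 for Eif3d, 0.793 for Eif3b and 0.775 for Eif3g. Without cafeteria 13 and control 4, r was 0.972 for Eif3g and 0.924 for Eif3b. Other members lay below 0 there, down to -0.872 for Eif4ebp2. Such relations were computed for members only, so how common they are among all genes was not tested. These relations were examined after the wide spread had been seen. No slide holds more than 2 arrays, so none could be computed within a slide. All arrays share the reference pool. The share of spots well above background was 60.7% for control 4, 66.7% for control 7 and 61.4% for cafeteria 13, against 58.8% to 65.0% on the other arrays.

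**Figure D5:**
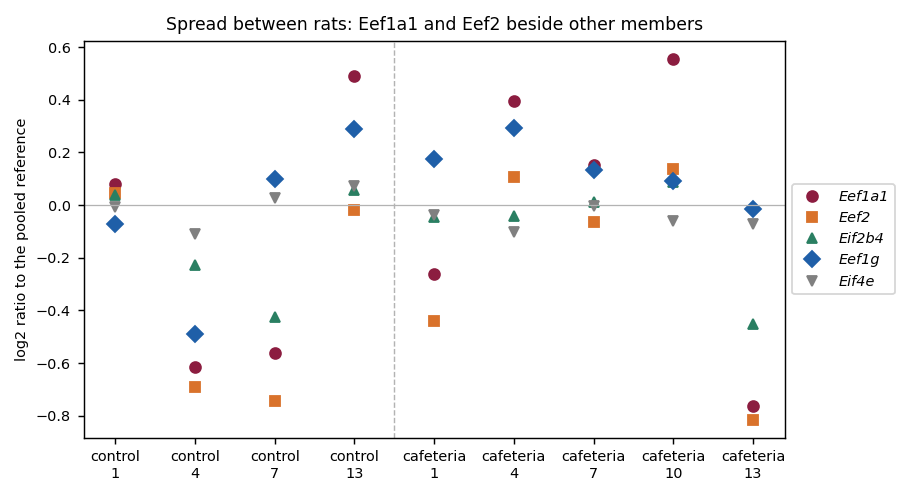
Log2 ratio to the pooled reference (y axis) of Eef1a1, Eef2, Eif2b4, Eef1g and Eif4e on each array (x axis, controls left of the dashed line), 1 point per animal. Eef1a1, Eef2 and Eif2b4 are low together in control 4, control 7 and cafeteria 13, while Eif4e on its brightest probe stays between -0.11 and 0.074.

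Ago2, the Argonaute that can cut its target RNA, was at 0.088, 0.032, 0.011 and 0.013 in controls and -0.13, -0.021, -0.38, -0.32 and -0.41 in cafeteria animals, a difference of -0.29 (SE 0.085) with a limma adjusted p of 0.997. Every control lay above every cafeteria animal, as for 0.649% of all genes (1.1% in either direction), and the difference ran from -0.42 to -0.24 over 23 alternatives. The other Argonaute genes differed by 0.022 (SE 0.075) for Ago1, -0.060 (SE 0.072) for Ago3 and 0.023 (SE 0.062) for Ago4.

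Among 33 other genes of the pathway, listed by role and including the eIF2 kinases, mTOR and its partners, poly(A)-binding proteins and release factors, 27 were detected and 20 lay above 0 (median 0.053). None had a limma adjusted p under 0.05. Without adjustment 1 gene, lower in cafeteria animals, had a p under 0.05, which is 1 of 27 where 4.08% of all genes did. It was Gspt1, the GTPase release factor that ends translation, at 0.49, 0.60, 0.48 and 0.30 in controls and 0.46, -0.0080, -0.072, -0.46 and -0.52 in cafeteria animals, a difference of -0.59 (SE 0.18, limma adjusted p 0.997). Cafeteria 10 and 13 were lowest, as on the third probe of Eif3a, and cafeteria 1 lay within the control range. Mtor, the kinase that phosphorylates 4E-binding proteins, differed by 0.078 (SE 0.059). Rps6, a ribosomal protein downstream of it, differed by 0.14 (SE 0.15), and Pabpc1, the main cytoplasmic poly(A)-binding protein, by -0.24 (SE 0.17). Of the kinases that phosphorylate Eif2s1, Eif2ak4 differed by 0.14 (SE 0.089), Eif2ak3 by 0.064 (SE 0.065), Eif2ak1 by 0.043 (SE 0.11) and Eif2ak2 by -0.11 (SE 0.11). Eif6, which keeps ribosomal subunits apart and which the older names hide, differed by 0.21 (SE 0.089, limma adjusted p 0.997).

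Defining markers of the cells named by the label were detected: 8 of 9 listed T-cell, 6 of 7 B-cell, 7 of 7 cytotoxic-cell and 7 of 7 monocyte markers. Platelet markers (6 detected) and erythroid markers (5 detected) were present too, and of 7 neutrophil markers on the array Camp, S100a8, S100a9 and Csf3r were detected on all 9 arrays, Ltf was well above background on 3, and Mpo and Cxcr2 on none. Of 3 genes of hepatocytes and adipocytes, listed as absent from these cells, Alb was well above background on all 9 arrays, Adipoq on 1 and Plin1 on none. The mean of the erythroid markers ran from -1.14 to -0.69 in controls and from -0.63 to -0.0055 in cafeteria animals. By limma, 5 of 5 were higher at an unadjusted p under 0.05, where 358 of 22078 genes were higher at that level. So were 2 cytotoxic-cell markers, and 1 T-cell marker was lower. No marker of any list had a limma adjusted p under 0.05. T-cell markers lay below 0 in 8 of 8 (mean -0.23 to 0.17 in controls and -0.45 to 0.13 in cafeteria animals), and cytotoxic-cell markers above 0 in 7 of 7 (-0.52 to -0.11 and -0.23 to 0.60). B-cell markers lay above 0 in 6 of 6 (median difference 0.28, mean -0.27 to 0.15 in controls and -0.24 to 0.38 in cafeteria animals). Platelet markers lay above 0 in 0 of 6 (median -0.43, mean -0.42 to 1.1 and -0.82 to 0.29, highest in control 4), monocyte markers in 1 of 7 (median -0.21, mean -0.24 to 0.25 and -0.64 to 0.37), and detected neutrophil markers in 1 of 4 (median -0.25, mean -0.45 to 0.19 and -0.74 to 0.18). The part of these cells in the values of any member was not tested, and in such bulk samples fewer cells of a type and less RNA per cell cannot be told apart.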

How the data were processed

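RNA of PBMC from 9 rats was hybridised to 2-colour whole-genome oligonucleotide arrays, 1 per animal, each with the animal in Cy5 and the pooled reference in Cy3, so no dye term could be fitted. The scanner files deposited by the authors give the spot and local background intensity of both dyes, from Agilent Feature Extraction 9.5.1.1 per the file headers, and that software's own log10 ratio of the dyes, background-subtracted and dye-normalized. The authors' deposited value table holds log2 values, filled for 21466 of 45220 spots. It followed each array's Cy5 intensity (rank correlation 0.993 to 0.999) with medians of 9.40 to 9.69, so it was read as an uncentred Cy5 level. How the reference entered it stays unknown.

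Here, intensities were corrected by normexp (offset 50) and log2 ratios of Cy5 over Cy3 normalized within arrays by loess, with control spots at weight 0 and non-uniform or population-outlier spots left out. Repeated spots were averaged. Probes well above background in Cy5 on at least 4 arrays (25808 of 41012) were tested with limma 3.58.1 (R 4.3.3), cafeteria against control, with Benjamini-Hochberg adjustment over all of them and a threshold of 0.05. The fit was tested on simulated data. The labels number the animals but name no separate housing or pairing. Numbers shared between groups gave no evidence that the animals were paired (correlations of their deviations -0.15 to 0.11), which cannot exclude a pairing. Correlations and the probe gap were tested by exact permutation in Python 3.11.15.

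Signal gives the depth of an array: 58.8% to 66.7% of 43379 spots were well above background, and the number of arrays limits the precision. All arrays were scanned on 1 day. They lie on 7 slides, 2 of which hold both groups. Names were updated through the RefSeq gene table (19594 probes matched). Probe positions are those in the files, on rn4, and the start regions come from the GRCr8 promoter table, so the builds were kept apart.

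Every array's value is given for up to 5 members of smallest p in each direction and for members listed by role. Further values are given for the probes of Eif3a and Eif4g2 and for Gspt1, which were chosen after their values had been seen. The members, the lists and the rule for naming were chosen with earlier results of these data known. Alternatives varied the background correction, the source and centring of the ratio, the filters, the slide and replicate block, the weights, the prior, the probe and each array left out. The detection filters and the prior leave a member's own difference as it is. The replicate block gave the same class medians as leaving out cafeteria 10. A sign held under every alternative thus counts some that could not change it. Membership by current symbols and membership without the Argonaute genes were added after the names had been seen.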

Additional observations from a re-analysis of the deposited data

Results flagged for a closer look

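Of 82 sets of 4 or 5 animals checked for 1 value far from the rest, 4 stood out by Dixon's criterion, a number that chance alone gives at about 1 in 20 sets. Eif1a was at 0.40 in cafeteria 13, where the next cafeteria animal was at 0.19. Eif5 was at -0.20 in control 7, where the next control was at 0.0055. The median of the initiator tRNA delivery factors was -0.073 in cafeteria 7 against 0.0063 in the nearest cafeteria animal. The median of the eIF2B subunits was -0.29 in cafeteria 13 against -0.047 in the nearest.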

How the results depend on the processing

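The count of members with an adjusted p under 0.05 was 0 under all 25 alternatives (lowest adjusted p 0.39, with the authors' values). The median difference, 0.034 as reported, was 0.19 with the authors' values, where the median of all genes was 0.13. With those values centred on each array's median, it was 0.065, where the median of all genes was 0.0059. With the slide as a fixed block, which uses only the 2 slides that hold both groups, the members' median was -0.069. Beyond these values, the cause of the shifts was not tested. Leaving out each array in turn gave medians from 0.0076 (without control 7) to 0.063 (without control 13), and counts of 0 throughout. With the replicate number as a block the median was 0.021 and the count 0. Control 1 correlated best with cafeteria 7, so the numbers are no evidence of pairing. Of 32 members whose arrays are listed, 10 kept their sign under every alternative, and 82 of 736 values had the opposite sign. Without the Argonaute genes the median was 0.038, and by current gene symbols, also without them, 0.035 over 54 genes. With 4 and 5 animals, intervals reached 0.84 from 0 (Eef1a1), and a gene's data are compatible with any difference inside its own interval.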
